A study of Mus musculus with 8 samples.

Results

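Heat shock proteins and J-domain proteins were compared between YFP+ and YFP- stromal cells of the injured mouse small intestine. Members were taken by symbol: the Hspa, Hspb and Hsp90 families, the Dnaja, Dnajb and Dnajc families, and Hspd1, Hspe1, Hsph1, Hsf1, Hsf2 and Bag3, with pseudogene names left out. This gave 77 of the 53801 genes listed, of which 67 held enough counts to be tested. By textbook role, 14 were heat-inducible, 37 constitutive, 8 chaperones of the endoplasmic reticulum (ER) and 18 tissue-restricted. The cells came from ulcers of LTβRYFP mice and were sorted as negative for CD45, found on leukocytes, and for CD31, found on endothelium. All mice had received indomethacin, a cyclooxygenase inhibitor that damages the small intestine, so that no untreated group bears on the comparison. The 4 YFP+ and 4 YFP- libraries were numbered 1 to 4 in each group. The labels list YFP+ and YFP- under genotype. The sources used here do not give the driver of the YFP reporter, the age of the mice or whether libraries come from separate animals. The main test compared libraries of equal number. Its p-values measure only how the differences between YFP+ and YFP- vary from number to number, a spread that may therefore be technical.

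Libraries held 12481608 to 29385718 counts, so that a level of 1 CPM (a count scaled by library size) stood for 11.7 to 29.7 counts. The summed level of 7 fibroblast markers was 21732 to 52122 CPM, against 18.5 to 99.6 CPM for 8 leukocyte markers and 12.6 to 109.7 CPM for 6 endothelial markers, with the fibroblast sum far above the others. The libraries of replicate 2 stood apart: on the first principal component (35.5% of the variance) they lay at 92.5 and 78.7, and the others between -46.2 and -12.4. The members took 0.761% to 1.12% of the counts of a library. Libraries of equal number resembled each other across the groups, and the comparison was made within replicate numbers.

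Chaperones bind unfolded protein and help it to fold, and many are made in larger amounts when a cell is heated or otherwise loaded with damaged protein. HSP70 proteins do this work in cycles of ATP hydrolysis; J-domain proteins (HSP40) bring them their clients and start the hydrolysis, and HSP110 proteins exchange the nucleotide. Small heat shock proteins hold unfolded protein without ATP, and HSP90 completes the folding of kinases and steroid receptors. The heat-inducible genes are switched on by the transcription factor HSF1, which binds inverted repeats of the unit GAA.

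The inverted repeat was searched in RefSeq promoter windows of GRCm38.p6, each from 250 bases before to 50 bases after a transcription start. The motif was GAANNTTC or TTCNNGAA, each of which is its own reverse complement, so that both strands are covered; motifs that overlapped were read as 1 run. It stood in 15.1% of the 32851 promoters and in at least 1 promoter of 17.0% of the 27025 genes that have one. Of the 13 heat-inducible genes with a window, 11 had the motif, as did 2 of 28 constitutive genes, 1 of 7 ER genes and 3 of 14 tissue-restricted genes; Hsp90aa1 had no window. The longer motif of 3 alternating units, GAANNTTCNNGAA or its reverse complement, stood in 0.603% of promoters, 0.662% of genes, and in 3 heat-inducible genes, Hsph1, Hspd1 and Hspe1, and 1 constitutive gene, Dnajb6. The sites of the genes that the results turn on are shown 5′ to 3′ on the gene's strand, with the motif in capitals. Hspb8 and Bag3 are shown because their RNA fell, the others because they are the classical inducible genes or carry the longer motif.

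Hspb8, chr5:116422844-116422873, minus strand: agaagccaggaGAAGTTTCtaggctcgcga
Bag3, chr7:128523603-128523632, plus strand: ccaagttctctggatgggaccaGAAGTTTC
Hspa1a, chr17:34972242-34972271, minus strand: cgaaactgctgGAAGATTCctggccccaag
Hspa1b, chr17:34959324-34959353, minus strand: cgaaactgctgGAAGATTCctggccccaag
Hspb1, chr5:135887791-135887820, plus strand: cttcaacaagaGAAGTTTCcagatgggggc
Dnajb4, chr3:152193841-152193870, minus strand: ttcgttcgctgTTCTAGAAagtacagagac
Hsph1, chr5:149636280-149636309, minus strand: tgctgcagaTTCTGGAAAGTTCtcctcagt
Hspd1, chr1:55088053-55088082, minus strand: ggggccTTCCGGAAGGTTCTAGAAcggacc
Hspe1, chr1:55088053-55088082, plus strand: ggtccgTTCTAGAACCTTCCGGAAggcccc
Dnajb6, chr5:29735843-29735872, plus strand: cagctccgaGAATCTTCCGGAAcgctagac

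The Hspb8 motif began 3 bases and the Bag3 motif 43 bases after the RefSeq start, so that both lay in transcribed sequence. GENCODE, the source of the gene coordinates given below, starts Bag3 further downstream, at chr7:128523616, which is still before the motif. Hspa1a and Hspa1b carried the same 30 bases, and 247 of the 250 bases before their starts were identical. Hspd1 and Hspe1 are neighbours that point away from each other, and the capitals in their windows are the same 18 bases read on opposite strands. Dnajb1, the third gene that fell, had no such motif in its window. Its 250 upstream bases are shown for that contrast; the capitals mark a CCAAT box, read here on the opposite strand.

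Dnajb1, chr8:83607925-83608174, plus strand: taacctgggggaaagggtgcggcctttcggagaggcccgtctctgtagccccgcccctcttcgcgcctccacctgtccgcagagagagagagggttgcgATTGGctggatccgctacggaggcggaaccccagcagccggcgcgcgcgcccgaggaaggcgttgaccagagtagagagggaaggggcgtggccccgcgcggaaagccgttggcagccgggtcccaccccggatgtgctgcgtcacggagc

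A match to these letters is a description of the sequence and not a measured binding site. The absence of a match does not show that HSF1 does not bind, since only exact matches within the window were searched.

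Of the 67 members tested, 3 were lower and 1 was higher in YFP+ cells at an adjusted p of 0.05 or below (edgeR quasi-likelihood test within replicate numbers). Over all 15945 genes tested, 1.59% were called lower and 0.696% higher, 2.28% in all. The members that fell were Hspb8, Dnajb1 and Bag3, all heat-inducible, and the one that rose was Dnajc8, a constitutive J-domain protein. The calls rest on the comparison within numbers: without it 0 of the 67 members were called, with 1 at an unadjusted p under 0.05, and 0% of all genes were called, with 2.04% at an unadjusted p under 0.05. DESeq2 called the same 4 members with the numbers as a block (3.43% of all genes) and 0 without (0.0126%). With library sizes alone as scaling, 212 genes were called higher and 153 lower, against 111 and 253 with the TMM factors used here, and Bag3 lost its call at an adjusted p of 0.116.

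Hspb8 fell most among the called members. It encodes a small heat shock protein that works with the co-chaperone BAG3 to hand damaged protein to autophagy, and lies at chr5:116408491-116422864 on the minus strand (GRCm38). Its level was 152, 110.2, 82.2 and 104 CPM in YFP- replicates 1 to 4 and 98.2, 70.4, 53.5 and 61.3 CPM in YFP+ replicates 1 to 4. Every YFP+ library lay below the YFP- library of its number, while the ranges of the groups overlapped. The mean was 112 ± 29.2 CPM in YFP- and 70.9 ± 19.5 CPM in YFP+ cells (SD, n = 4), and the log2 fold change was -0.66 (SE 0.0739, 95% interval -0.82 to -0.51, edgeR adjusted p 1.55e-04). The within-pair differences were nearly equal, at -0.63, -0.65, -0.62 and -0.75 on the log2 scale. Hspb8 was called in 11 of 11 other settings that kept the numbers as a block.

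Dnajb1 encodes the main inducible HSP40, the usual partner of inducible HSP70, and lies at chr8:83608193-83612653 on the plus strand. It stood at 247, 236, 140.3 and 193 CPM in YFP- and at 181, 177, 127 and 103 CPM in YFP+ replicates 1 to 4. Each pair had the lower value in YFP+ cells, by the least in replicate 3 and the most in replicate 4 (-0.15 and -0.91 on the log2 scale), and the groups overlapped. The mean went from 204 ± 48.5 to 147 ± 38.3 CPM, a log2 fold change of -0.48 (SE 0.101, 95% interval -0.70 to -0.26, edgeR adjusted p 0.0291). The call was lost without replicate 1, 2 or 4, at adjusted p of 0.164, 0.0788 and 0.0695.

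Bag3 encodes the nucleotide exchange factor that joins HSP70 to small heat shock proteins, and lies at chr7:128523616-128546981 on the plus strand. Its level was 403, 726, 309 and 299 CPM in YFP- and 363, 566, 279 and 194 CPM in YFP+ replicates 1 to 4. Replicate 2 was the highest in both groups, which overlapped widely, and each YFP+ library lay below its partner. The mean was 434 ± 200.1 CPM in YFP- and 351 ± 159 CPM in YFP+ cells, and the log2 fold change was -0.32 (SE 0.0777, 95% interval -0.48 to -0.15, edgeR adjusted p 0.0440). Leaving out any 1 replicate number ended the call, with adjusted p of 0.0506, 0.118, 0.0929 and 0.263 without replicates 1 to 4.

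**Figure D1:**
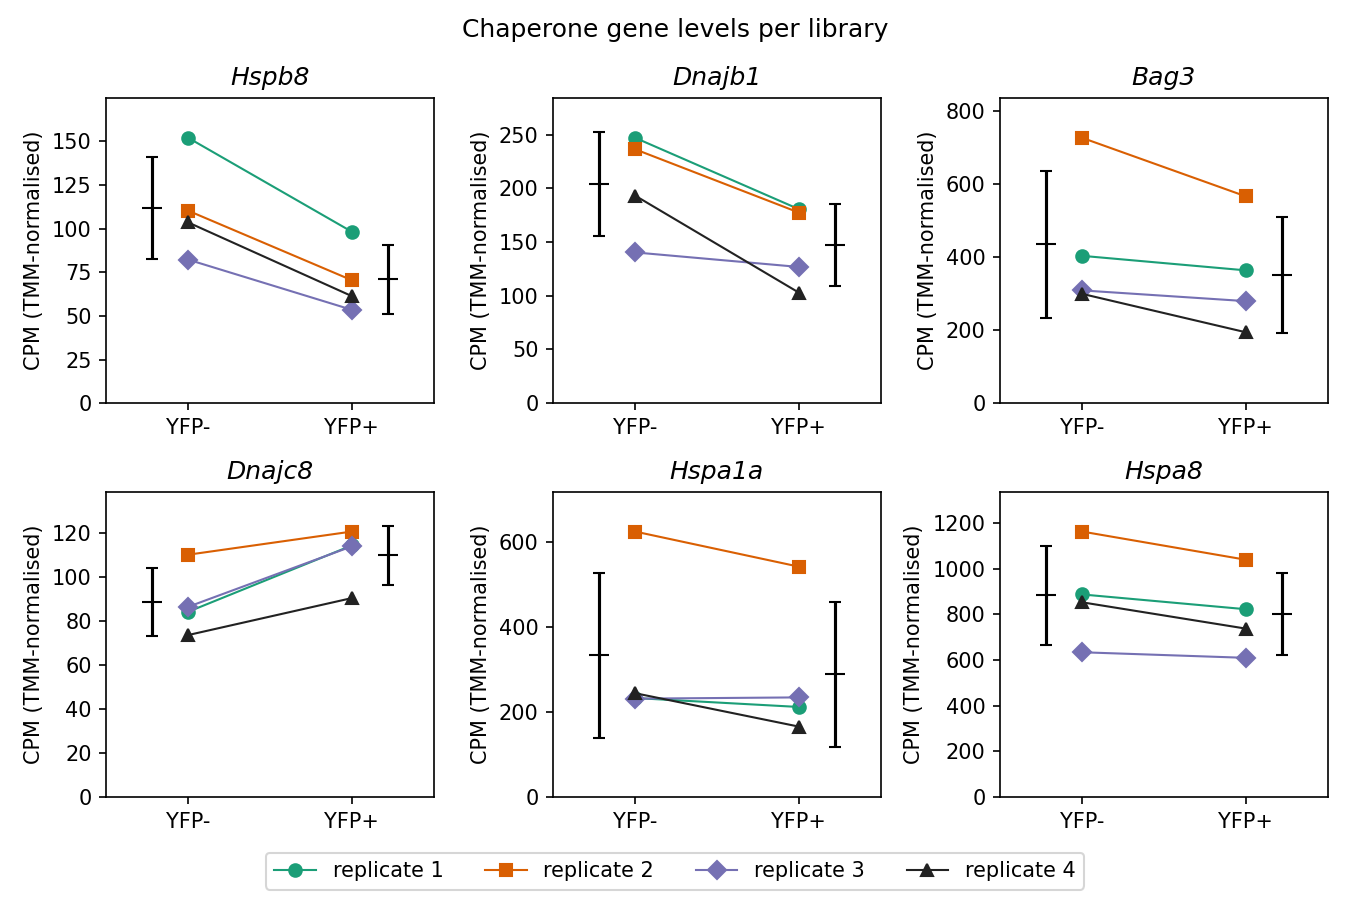
Level in CPM (linear axes from 0) of Hspb8, Dnajb1, Bag3, Dnajc8, Hspa1a and Hspa8 in each library; lines join libraries of equal replicate number and bars give mean ± SD over 4 libraries. All 4 lines fall for Hspb8, Dnajb1, Bag3 and Hspa8 and rise for Dnajc8, while replicate 2 stands far above the others for Hspa1a (625 and 542 CPM).

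The inducible HSP70 genes had lower means in YFP+ cells but did not pass the test. Hspa1a stood at 233, 625, 231 and 244 CPM in YFP- and at 212, 542, 234 and 166 CPM in YFP+ replicates 1 to 4. Its values were lower in 3 of 4 pairs, and the distance between replicate 2 and the rest was larger than any difference within a pair. The log2 fold change was -0.22 (95% interval -0.39 to -0.05, unadjusted p 0.0160, edgeR adjusted p 0.254). Hspa1b, its near-identical neighbour, gave -0.21 (edgeR adjusted p 0.487). Without replicate 4 the values were -0.11 for Hspa1a and -0.06 for Hspa1b (edgeR adjusted p 0.834 and 0.951). The exons of Hspa1a and Hspa1b share 60.3% and 62.3% of their 50-base words with other genes, mainly each other, so that the split of reads between them is uncertain; the ratio of their counts ran from 0.935 to 1.2.

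Among the other inducible genes the intervals covered 0 and no call was made. Hsp90aa1, the inducible cytosolic HSP90, had a log2 fold change of -0.10 (95% interval -0.24 to 0.03), and Hsph1, the inducible HSP110, had 0.05 (-0.11 to 0.20). Hspb1, the small heat shock protein HSP25, stood at 8.96, 42.5, 14.9 and 11.2 CPM in YFP- and 9.71, 27.3, 17.1 and 12.6 CPM in YFP+ replicates 1 to 4. Replicate 2 was again the highest of both groups, and the log2 fold change was -0.04 (-0.41 to 0.33). The mitochondrial chaperonin genes Hspd1 and Hspe1 gave -0.08 (-0.36 to 0.20) and 0.17 (-0.20 to 0.53). The cytosolic J-domain proteins Dnaja1, Dnaja4 and Dnajb4 gave -0.15, -0.16 and -0.17, and the HSP110 relative Hspa4l gave 0.11. Reads of Hsp90aa1, Hspb1, Hspd1 and Hspe1 are also uncertain, since 47.5%, 48.8%, 39.7% and 18.4% of their 50-base words occur in other genes, and the exons of Hspd1 and Hspe1 overlap on opposite strands.

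Of the constitutive members, 1 of the 36 tested rose and 0 fell. Dnajc8, a J-domain protein associated with the spliceosome, lies at chr4:132535550-132553742 on the plus strand. Its level was 84.3, 110.2, 86.5 and 73.7 CPM in YFP- and 114, 121, 114 and 90.5 CPM in YFP+ replicates 1 to 4. Each YFP+ library lay above its partner, and the groups overlapped. The mean was 88.7 ± 15.4 CPM in YFP- and 109.9 ± 13.3 CPM in YFP+ cells, a log2 fold change of 0.32 (SE 0.0770, 95% interval 0.16 to 0.48, edgeR adjusted p 0.0422). The call was lost with RLE factors (adjusted p 0.0532) and without replicate 1, 3 or 4 (0.184, 0.238 and 0.131).

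Hspa8, the constitutive HSP70 of the cytosol, stood at 886, 1162, 633 and 852 CPM in YFP- and at 822, 1039, 609 and 737 CPM in YFP+ replicates 1 to 4. It was lower in 4 of 4 pairs, by little beside the distance between numbers. The log2 fold change was -0.13 (95% interval -0.26 to -0.01, edgeR adjusted p 0.404), and 38.6% of its 50-base words occur in other genes. Hsp90ab1, the constitutive HSP90, had a mean of 1376 ± 229 CPM in YFP- and 1366 ± 216 CPM in YFP+ cells and a log2 fold change of -0.01 (-0.15 to 0.13). Hspa9, the mitochondrial HSP70, gave 0.05 (-0.09 to 0.18). The factors themselves were low: Hsf1, the master regulator of the heat response, had 28.1 ± 4.88 and 27.4 ± 1.40 CPM, and Hsf2 had 21.6 ± 7.37 and 20.3 ± 4.18 CPM in YFP- and YFP+ cells. Their log2 fold changes were -0.03 (-0.30 to 0.24) and -0.05 (-0.43 to 0.33).

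The largest remaining differences among constitutive members with a mean of at least 5 CPM were not called. Dnajc15, a J-domain protein of the inner mitochondrial membrane, gave 0.43 (95% interval -0.13 to 0.98) and Dnajc9, a histone co-chaperone, gave 0.30 (-0.28 to 0.87) on the log2 scale. Dnajc27 gave 0.27 and Dnajc11, which sits at mitochondrial cristae junctions, gave 0.26, the latter higher in 4 of 4 pairs. Dnajb14, an ER membrane J-domain protein, gave -0.24 (-0.49 to 0.01), and Hspbap1 gave -0.23 (-0.66 to 0.20). Leaving out 1 pair moved several of these by over 1.5 times: Dnajc15 was 0.74 without replicate 3, Dnajc27 0.43 without replicate 2, Dnajc9 0.54 without replicate 1 and 0.17 without replicate 4, Dnajb14 -0.14 without replicate 1, and Hspbap1 -0.08 without replicate 2. None of these is shown to change.

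**Figure D2:**
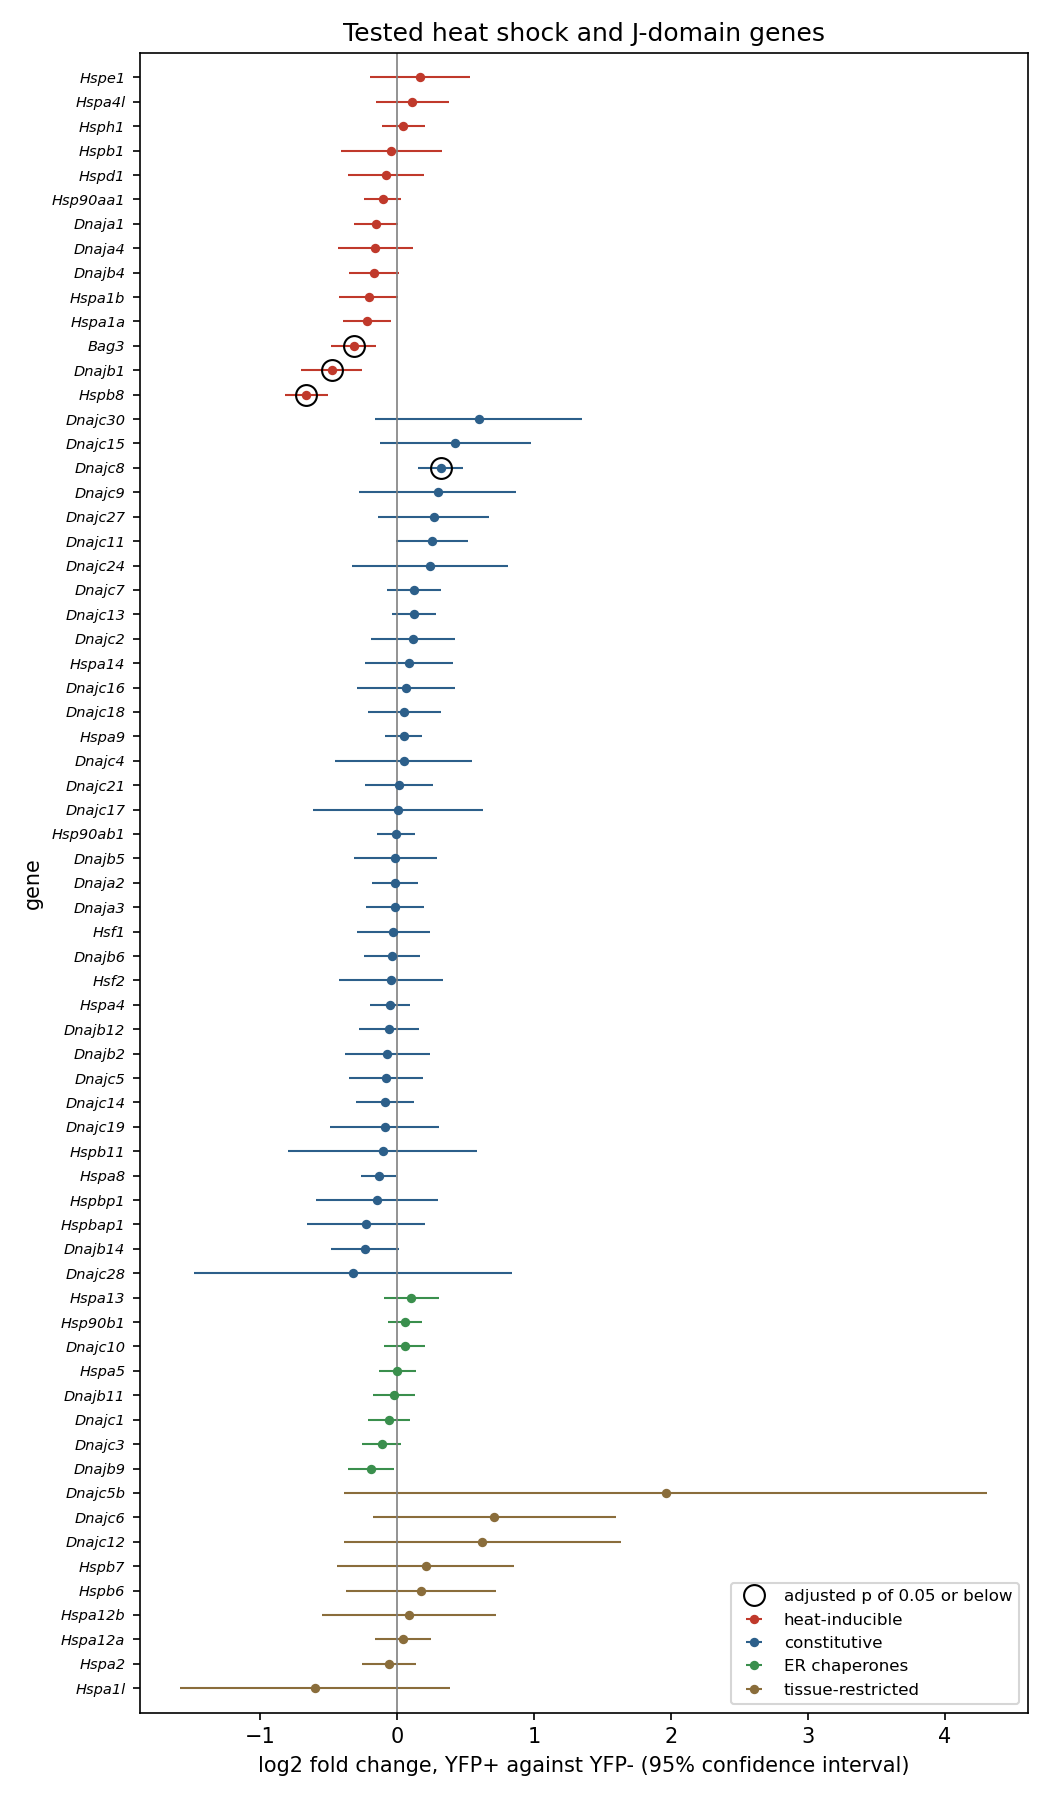
Log2 fold change, YFP+ over YFP-, of the 67 tested members with 95% intervals, grouped by role; circled members passed the adjusted threshold. The 3 circled genes to the left are heat-inducible (Hspb8, Dnajb1, Bag3) and the 1 to the right is Dnajc8.

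Set against each other, heat-inducible members lay lower than constitutive ones. Of 14 heat-inducible genes, 11 had a log2 fold change below 0, with a median of -0.16; of 36 constitutive genes, 19 did, with a median of -0.01, and of all genes tested 49% did, with a median of 0.0048. The heat-inducible median was -0.08 without replicate 4 and -0.07 with library sizes alone. The difference of the medians within a pair was -0.06, -0.24, -0.04 and -0.37 for replicates 1 to 4, so that heat-inducible genes were lower relative to constitutive genes in 4 of 4 pairs (mean -0.18 ± 0.16, SD over 4 pairs). In replicates 1 and 3 the distance was small. The heat-inducible median itself was -0.06, -0.31, 0.03 and -0.34 within pairs 1 to 4, beside -0.0045, -0.06, 0.08 and 0.03 for constitutive genes. In replicate 3 it was thus not below 0, and the distance there came from a higher constitutive median. The summed level of the heat-inducible genes was 2086, 3698, 1625 and 1885 CPM in YFP- and 1888, 3070.1, 1599 and 1405 CPM in YFP+ replicates 1 to 4. The groups overlapped, and each YFP+ library was below its partner, in replicate 3 by little (1625 and 1599 CPM). The sums include Hspb8, Dnajb1 and Bag3, which were called lower. Sums without these genes were not computed, so the sums say nothing separate about the other heat-inducible genes. The roles were assigned with earlier results of these data known, and these counts are a description without a test.

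Other groups of genes also differed within pairs, but the pairs with the larger differences were not always the same. The summed level of 22 immediate early genes, which respond to almost any acute stimulus, was also lower in 4 of 4 pairs. The median log2 fold change was -0.33, and 3 were called lower (Egr3, Nr4a1 and Dusp1). Of the 22 genes, 22 lay below 0 and 14 were lower in 4 of 4 pairs. Of all genes tested, 49% and 10.2% were. The median of the immediate early genes within pairs was -0.09, -0.28, -0.12 and -0.73. Replicates 2 and 4 thus had the larger differences, as for the heat-inducible genes. The summed fibroblast markers ran from 26408 to 52122 CPM in YFP- and from 21732 to 35191 CPM in YFP+ cells. They were lower in 4 of 4 pairs, with 5 of 7 called lower. Their median within pairs was -0.35, -0.25, -0.35 and -0.60 for replicates 1 to 4, smallest in replicate 2. Smooth muscle markers ran from 528 to 1055 CPM and from 620.3 to 1441 CPM, higher in 4 of 4 pairs with 3 of 8 called higher, and 7 enteric glia markers from 8.20 to 45.5 CPM and from 5.86 to 9.18 CPM, lower in 4 of 4 pairs with 1 called lower. Leukocyte markers were higher in 4 of 4 pairs (18.5 to 41.8 and 22.7 to 99.6 CPM). Epithelial markers were higher in 2 of 4 (17.3 to 36.9 and 11.4 to 150.7 CPM). Endothelial markers ran from 16.6 to 74.2 CPM and from 12.6 to 109.7 CPM, lower in 2 of 4 pairs, with pair medians from -1.44 to 2.49. In the leukocyte, epithelial and endothelial lists 0 were called. Over all genes tested, 1.59% were called lower and 0.696% higher. The part of these cell types and of the immediate early response in the chaperone differences was not tested; in sorted bulk samples, fewer cells of a type and less RNA per cell cannot be told apart.

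**Figure D3:**
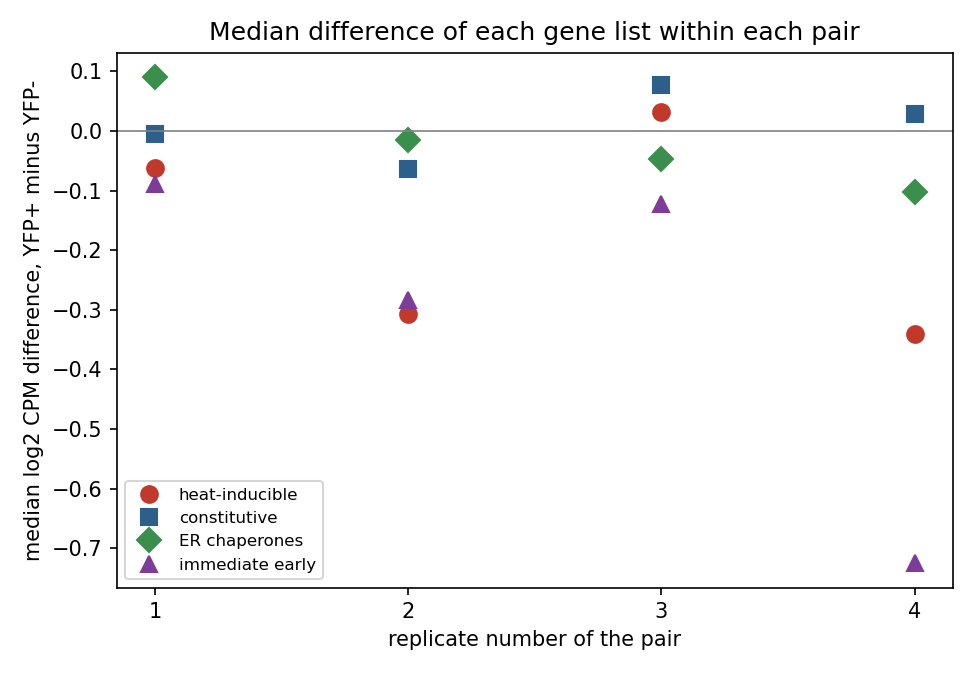
Median log2 CPM difference, YFP+ minus YFP-, within each of the 4 replicate numbers for heat-inducible, constitutive and ER members and for immediate early genes. Heat-inducible and immediate early genes lie lowest in replicates 2 and 4, while constitutive medians stay between -0.06 and 0.08.

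The heat-inducible genes also varied with the replicate number. Relative to the mean of its group, the median heat-inducible gene was 0.70 higher in YFP- replicate 2 and 0.51 higher in YFP+ replicate 2 on the log2 scale, against 0.04 and 0.00 for constitutive genes. Both replicate 2 libraries were the highest of all for 8 of 14 heat-inducible and 6 of 36 constitutive genes. The same held for 0 of 8 ER and 1 of 9 tissue-restricted genes. Neither this share nor the deviation in replicate 2 was computed over all genes tested. Replicate 2 also stood apart on the first principal component, so this is not shown to be particular to heat-inducible genes. The median spread between numbers (SD of the pair means) was 0.44 for heat-inducible and 0.29 for constitutive genes, beside 0.41 over all genes tested, so the heat-inducible value was close to that of genes at large. The median absolute pair difference was 0.26 in both lists and 0.33 over all genes. Hspb8 and Dnajb1 were among the exceptions, with replicate 1 the highest in both groups. Leaving out replicates 1 to 4 in turn, the heat-inducible median was -0.19, -0.10, -0.24 and -0.08, and its distance to the constitutive median -0.21, -0.13, -0.25 and -0.08. Without replicate 1, 2 or 4, Hspb8 was the 1 member still called lower.

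**Figure D4:**
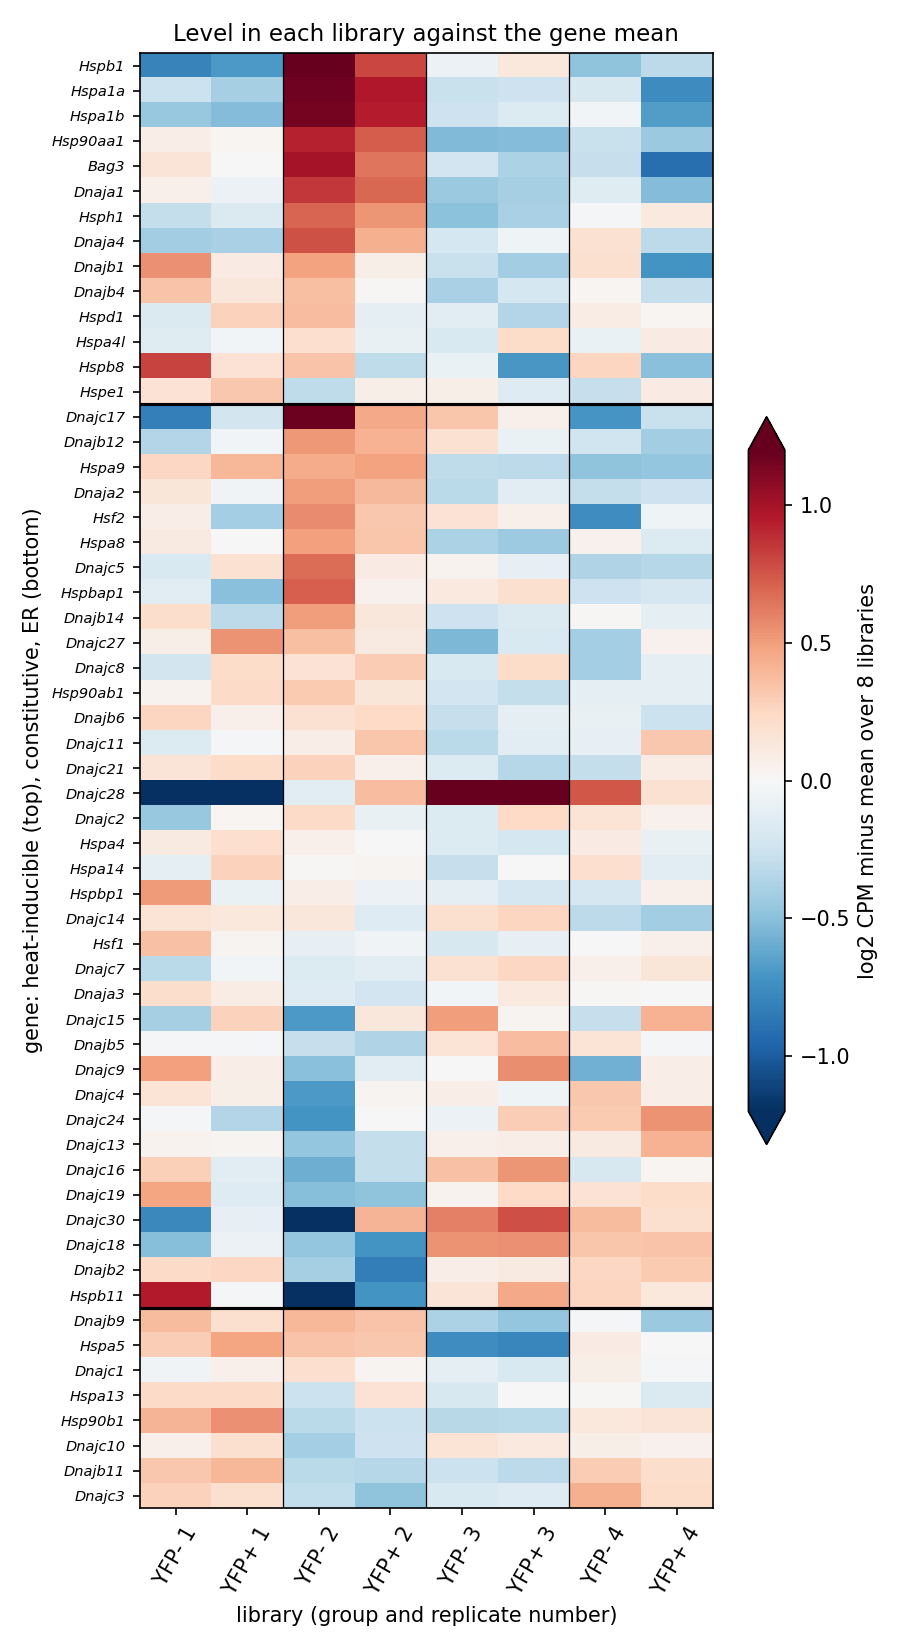
Log2 CPM of each tested heat-inducible, constitutive and ER member in each library, as the difference from that gene's mean over 8 libraries; the colour scale ends at -1.2 and 1.2. The replicate 2 columns are high for most heat-inducible genes in both groups. Both replicate 3 libraries are the lowest for 3 of 8 ER genes. The share of all genes with either pattern was not counted.

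The ER chaperones, which fold secreted protein such as the collagens of fibroblasts, were abundant, and 0 of 8 passed the test. At an unadjusted p under 0.05 stood 1 of them, where 11.1% of all genes tested did. Hspa5 (BiP), the ER HSP70, stood at 1973, 2031, 956 and 1719.8 CPM in YFP- and at 2225, 2011, 929.5 and 1596 CPM in YFP+ replicates 1 to 4. Replicate 3 was the lowest in both groups, by more than any difference within a pair. Hsp90b1 (GRP94), the ER HSP90, had a mean of 1139.6 ± 293 and 1194 ± 348 CPM and was higher in 4 of 4 pairs, with a log2 fold change of 0.06 (95% interval -0.07 to 0.18). Hspa5 gave 0.00 (-0.13 to 0.14), and its sign differed between settings. Of the 8 genes, 4 lay below and 4 above 0 (median -0.01), from -0.19 for Dnajb9 (edgeR adjusted p 0.344, lower in 4 of 4 pairs) to 0.10 for Hspa13. Of 22 further ER stress genes, 0 were called (median -0.0013, 2 at an unadjusted p under 0.05, beside 11.1% of all genes).

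Most tissue-restricted members were low, and 9 of 18 could be tested. Of these, 0 were called and 0 stood at an unadjusted p under 0.05, beside 11.1% of all genes. Hspa2, the HSP70 known from the testis, was the most abundant of them at 61.3 ± 11.9 and 59.5 ± 14.1 CPM, with a log2 fold change of -0.06 (-0.25 to 0.14). Of the 10 members not tested, Dnajc25, Dnajb3 and Hspb3 had 0 counts in every library, and the other 7 had 1 to 63 counts over all 8 libraries. The exons of Dnajc25 overlap those of Gm20503 on the same strand, and how reads in both were counted was not tested, so the 0 does not show that the gene was silent. Of 40 co-chaperones and chaperonin subunits outside the families counted here, 0 were called (median -0.0056, 2 at an unadjusted p under 0.05, beside 11.1% of all genes).

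Per kilobase of exon, the most abundant members were Hsp90ab1 at 457, Hspa5 at 397, Hsp90b1 at 289 and Hspa8 at 196 CPM per kb, averaged over 8 libraries. Bag3 followed at 153 CPM per kb, above Hspa1b and Hspa1a (105.7 and 104.8, with shared reads) and Hsp90aa1 at 81.8. The places of Hsp90aa1 and Hspa8 are uncertain too, since 47.5% and 38.6% of their 50-base words occur in other genes. Dnajb1 reached 54.8, Hspa9 51.9 and Hspb8 46.9 CPM per kb. The order of near neighbours such as Dnajb1, Hspa9 and Hspb8 is within the spread between libraries.

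Across members, 5 were lower in 4 of 4 pairs (Hspb8, Dnajb1, Bag3, Hspa8 and Dnajb9) and 5 were higher (Dnajc8, Dnajc11, Dnajc7, Hsp90b1 and Dnajc5b), against 10.2% and 8.86% of all genes tested. No member had all YFP+ libraries below or above all YFP- libraries; 0.859% and 0.69% of all genes did. In the authors' deposited table the same 4 members passed an adjusted p of 0.05 (3.01% of its genes), with values of 6.72e-11 for Hspb8, 3.82e-04 for Dnajb1, 0.00474 for Bag3 and 0.0367 for Dnajc8. That table comes from the same counts and is no independent evidence.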

How the data were processed

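RNA of sorted cells was sequenced from Takara's low-input stranded total RNA kit, per the labels' protocols. The submitters' processing notes name DESeq2, featureCounts 2.0.1, STAR 2.7.3a and cutadapt 3.4, with GRCm38 as genome build. The annotation release and strand setting: not given in the sources used here. Reads of the 23 tested members whose exons overlap an opposite-strand gene are therefore uncertain. Per the file headers, the deposited table holds counts, which are whole numbers. It also holds the authors' normalised counts, a score rounded to whole numbers, and their group means, a signal. The authors' comparison gives a fold change as a ratio, its log2 value, and p-values, per the file headers.

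Everything tested was computed from the counts in edgeR 4.0.16 (R 4.3.3): filterByExpr, TMM factors, a robust quasi-likelihood fit blocked on replicate number, two-sided tests, and p-values adjusted by Benjamini-Hochberg over 15945 genes at 0.05. SE was taken as the log2 fold change over the root of F. CPM are TMM-normalised. Same-numbered libraries' deviations from group means correlated at 0.233, 0.487, 0.376 and 0.376 (at most 0.0456 between different numbers), and each of the 8 libraries was closest to its own number; the pairing comes from the titles' numbers and this check, since the labels do not state it. Libraries within a group differed by more than sampling noise. Alternatives were no block, DESeq2 1.42.0, limma voom 3.58.1, RLE factors, library sizes alone, looser and stricter count filters, mitochondrial genes left out, and each pair left out; DESeq2 without the block was added after seeing the data. Coordinates and exon overlaps are from GENCODE M21, in which 77 members have an entry; promoter windows are RefSeq's, which held 62 members. The members and lists were chosen with earlier results of these data known. Named are 16 core members, called members, the 5 largest changes each way among those with a mean of at least 5 CPM, and the most abundant of each list; other members were named after their values were seen. The script was tested on simulated data.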

Additional observations from a re-analysis of the deposited data

Results flagged for a closer look

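Hspa1a in YFP- replicate 2 (625 CPM) and Hspa1b in the same library (589 CPM) lay far above the other 3 YFP- libraries, with gaps that exceed Dixon's critical value for 4 samples. They were 2 of 50 groups of 4 libraries looked at; chance flags about 1 in 20. The genes share reads, so these are not independent observations, and YFP+ replicate 2 was also the highest of its group, at 542 and 511 CPM.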

How the results depend on the processing

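Without the replicate block, 0 genes were called higher and 0 lower, members included; DESeq2 without the replicate block called 0 higher and 2 lower, and 0 members. With the block, genes called higher and lower were 169 and 357 with DESeq2, 209 and 384 with limma voom, 212 and 153 with library sizes alone, and 253 and 420 with no count filter. Leaving out 1 pair gave 38 to 130 higher and 119 to 296 lower, with 0 to 1 members higher and 1 to 2 lower. RLE factors left 0 members higher. With library sizes alone the constitutive and ER medians were 0.0747 and 0.0772. The heat-inducible minus constitutive median stayed below 0 in each setting run, from -0.25 to -0.08. A change of scaling shifts both medians alike, and the value of each pair was already below 0. Most of these settings could therefore hardly have changed its sign.

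Of 325 values of named members, 287 kept direction and call, 20 lost the call and 18 changed sign. Most of the 325 belong to genes that were never called and had no call to lose. Of the called members, Hspb8 was called in 11 of 11 other settings with the block, Dnajb1 in 8, Dnajc8 in 7 and Bag3 in 6. Without the block each of them lost its call. None of the 18 changes of sign was in a called gene. Hspa5 was -0.0053 with DESeq2 and -0.0054 with RLE factors. Library sizes alone gave Hspb1 0.0445, Hspd1 0.0084, Hsp90ab1 0.0769, Hsf1 0.0587, Hsf2 0.0398 and Hspa2 0.0293. Leaving out each pair in turn, Hspb1 ran from -0.126 to 0.161, Hspd1 from -0.256 to 0.0544, Hsp90ab1 from -0.0718 to 0.0432, Hspa5 from -0.0526 to 0.0400, Hsf1 from -0.0684 to 0.0717, Hsf2 from -0.282 to 0.107 and Hspa2 from -0.119 to 0.0264. DESeq2 without the block gave Hsph1 -0.0011. The cause of these changes was not tested. A level of 1 CPM stood for 11.7 counts in the smallest library, which limits the precision of the low members.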

Other observations

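A few co-chaperones and ER genes outside the families counted above varied widely with the replicate number, unlike their lists as a whole: the median spread between numbers was 0.23 for 40 co-chaperones and 0.38 for 22 ER stress genes, beside 0.41 over all genes tested (log2 scale). Fkbp5, a co-chaperone of steroid receptors induced by glucocorticoids, stood at 74.0, 376, 278 and 147 CPM in YFP- and at 70.6, 344, 275 and 118 CPM in YFP+ replicates 1 to 4. It was lower in 4 of 4 pairs, with a log2 fold change of -0.13 (edgeR adjusted p 0.524). Sdf2l1, an ER co-chaperone, stood at 30.2, 3.92, 11.1 and 39.5 CPM in YFP- and at 33.8, 6.70, 10.3 and 34.0 CPM in YFP+ replicates 1 to 4, lowest in replicate 2, where Hspa1a was highest. Serpinh1, the collagen chaperone HSP47, was lowest in the same libraries, at 491 and 459 CPM, against 695 to 1498 CPM in the rest. These genes were chosen after their values were seen.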
